A study of Homo sapiens with 19 samples.

Results

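The sites described here are 2050 regions of chromosome 7 at which the orphan nuclear receptor ERRα was called bound in serum-starved, vehicle-treated SKBr3 cells and in neither of the growth factor-treated cultures of the same experiment. They were chosen by overlap of peak positions: the vehicle, EGF and HRG (heregulin) peak lists of SKBr3 cells were merged wherever peaks shared at least 1 bp, and a merged region on chromosome 7 became a member when it held a vehicle peak and no EGF or HRG peak. The merge gave 55998 sites in all, of which 5670 lay on chromosome 7, so the members made up 36.2% of the sites of that chromosome and 3.66% of all sites. Each member was a single vehicle peak, and together the members covered 4.23 Mb. Being listed with vehicle and not with EGF or HRG is thus what selected them and is not a result; a site whose signal fell just short of the peak caller's threshold after growth factor treatment is also not listed.

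SKBr3 is a breast cancer cell line with amplified HER2, the receptor tyrosine kinase also called ERBB2. Cells were starved of serum for 24 h and then given vehicle (PBS), 100 uM EGF or 100 uM HRG for 90 min, after which ERRα-bound DNA was isolated by chromatin immunoprecipitation (ChIP) and sequenced. Each of these 3 lists rests on 2 ChIP libraries that the authors pooled and 1 input library. The other 5 lists, which the choice of members did not use, came from untreated parental SKBr3 cells (pSKBr3), lapatinib-resistant SKBr3 cells kept in 2 uM lapatinib (LRSKBr3), again with 2 ChIP libraries and 1 input each, and from BT-474 cells, another breast cancer line with amplified HER2, starved and given vehicle, EGF or HRG in the same way, with 1 ChIP library each and the vehicle input shared. The lists hold no read counts, no input coverage and no values per replicate, so the depth behind a peak is unknown, and no spread between replicates could be computed. The intervals below are 95% Wilson intervals of a share or Newcombe intervals of a difference; they cover counting error only, since neighbouring sites of 1 pooled experiment are not replicates of a condition.

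ERRα (gene symbol ESRRA) binds DNA as a nuclear receptor without a known natural ligand and regulates genes of mitochondrial respiration and energy metabolism. It recognises the ERR response element (ERRE), a nuclear receptor half-site with a short extension at its 5′ end. AP-1, the dimer of Jun and Fos proteins that growth factor signalling activates, recognises a different, palindromic word. Chromosome 7 carries EGFR, MET and HGF as well as the HOXA cluster, and mixes gene-rich, GC-rich stretches with long gene-poor, AT-rich ones.

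The sequences that follow show what an ERRE at a member looks like and how the strongest member differs. The 9-base ERRE word TCAAGGTCA was searched on both strands within 100 bp of each peak centre. Of the 4 highest-scoring members that carry it, 3 are printed 5′ to 3′ on the strand of the word, from the GRCh37 genome, with the word in capitals.
PCLO-side site, chr7:82954390-82954470, minus strand: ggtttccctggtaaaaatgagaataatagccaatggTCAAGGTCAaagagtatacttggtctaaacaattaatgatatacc
NAMPT intron site, chr7:105903113-105903193, minus strand: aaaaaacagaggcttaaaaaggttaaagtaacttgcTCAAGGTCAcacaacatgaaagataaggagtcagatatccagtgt
MACC1 intron site, chr7:20204637-20204717, minus strand: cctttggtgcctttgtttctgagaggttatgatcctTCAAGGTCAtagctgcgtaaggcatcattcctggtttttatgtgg
The centre of the highest-scoring member, an intergenic peak whose nearest protein-coding gene is ANKRD7, holds neither the ERRE nor the AP-1 word and so has no capitals.
Highest-scoring member, chr7:118504532-118504652, plus strand: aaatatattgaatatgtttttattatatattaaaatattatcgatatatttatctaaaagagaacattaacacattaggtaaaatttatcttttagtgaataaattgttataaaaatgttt
Its GC content was 22.9% in the 200 bp around the centre, against a mean of 38.0% ± 6.68 (s.d., n = 2050) over the members.

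Chromosome 7 held 24.3% of all 8445 vehicle-only sites (interval 23.4 to 25.2%), although it makes up 5.14% of the length of the chromosomes. Of the 3418 sites of chromosome 7 with a vehicle peak, 60% were vehicle only (58.3 to 61.6%), compared with 22.7% (22.3 to 23.2%) of 28114 on the other chromosomes. Vehicle-only status is what the rule used and the chromosome was picked with such shares known, so these values describe the choice and test nothing. Over all chromosomes, 15.1% of sites and 26.8% of vehicle-called sites were vehicle only. The next chromosomes in order were 20, at 43.4% (40.3 to 46.5%), and 3, at 35.5% (33.7 to 37.3%), and the lowest was 19, at 5.24% (3.77 to 7.23%). Chromosome Y had 6 vehicle-called sites, too few to place in the order.

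**Figure D1:**
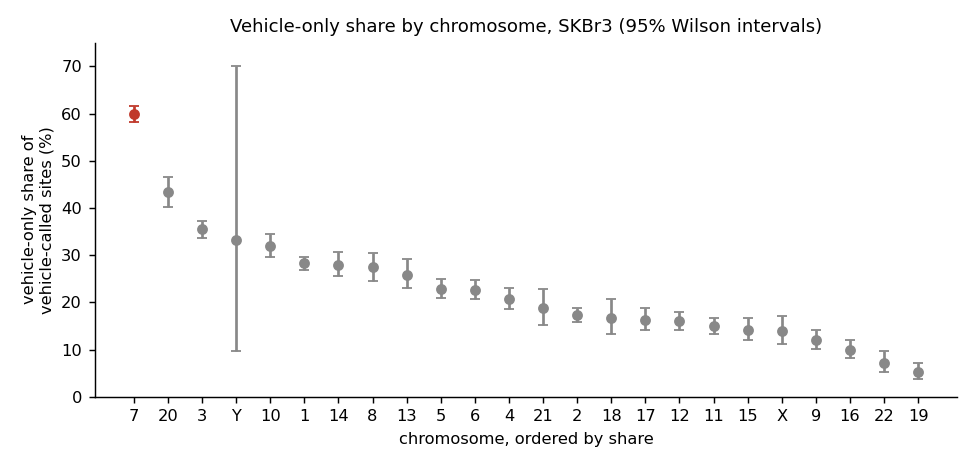
Share of vehicle-called SKBr3 sites that had no EGF or HRG peak (vertical axis, %) for each chromosome, ordered by that share; points are shares and bars 95% Wilson intervals, with chromosome 7 in red. Chromosome 7 stands at 60%, above chromosome 20 at 43.4% and all the rest; the wide bar of Y rests on 6 sites.

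The vehicle list as a whole held more of its peaks on chromosome 7 than the other lists did. It put 10.9% of its 32183 peaks on chromosome 7, while the other 7 lists put between 5.40% (LRSKBr3) and 7.12% (BT-474, EGF) of theirs there. In numbers, chromosome 7 held 3497 vehicle peaks of SKBr3 cells against 2108 EGF and 2447 HRG peaks. The 1457 peaks of pSKBr3 cells, parental cells of the same line labelled untreated, were 6.46% of that list. The BT-474 vehicle list, from cells handled in the same way, had 2066 peaks on chromosome 7, or 6.40%.

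Along the chromosome the members were concentrated on the short arm. It held 1371 of them, or 66.9% (64.8 to 68.9%), at 23.7 per Mb of sequenced bases, and the long arm held 679 at 6.97 per Mb. The 2 arms had nearly the same GC content, 41.0% and 40.6%. All peaks of the vehicle list were also denser on the short arm, at 37.6 per Mb against 13.5, as were those of the EGF list (18.5 against 10.6), the HRG list (18.5 against 14.1), the pSKBr3 list (12 against 7.81) and the LRSKBr3 list (17 against 11.9). In the vehicle list of BT-474 cells the arms hardly differed, at 13.4 and 13.2 peaks per Mb. Members were 64.6% (62.5 to 66.6%) of the vehicle-called sites of the short arm and 52.4% (49.7 to 55.1%) of those of the long arm, both above the 43.4% of chromosome 20.

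The first member lay at chr7:474605-476189, in the intergenic sequence nearest PDGFA, and the last at chr7:151967448-151968397, in an intron of KMT2C, a histone methyltransferase gene. Between them the densest 10 Mb window ran from 8 to 18 Mb and held 440 members, 21.5% of all, at 44 per Mb. In that window 74.1% (70.4 to 77.4%) of 594 vehicle-called sites were vehicle only; its GC content was 36.3% and it held the starts of 26 protein-coding genes. It had 609 vehicle peaks, 214 EGF and 139 HRG peaks, whereas BT-474 cells had 143, 169 and 236 there. The next windows that did not overlap it were 18 to 28 Mb, with 281 members, and 33 to 43 Mb, with 239. High-scoring members of these windows lay in an intron of THSD7A (8 to 18 Mb), and in the sequence nearest SP8 and an intron of HDAC9 (18 to 28 Mb). In the window of 33 to 43 Mb they lay in the intergenic sequence nearest GLI3 and in an intron of SFRP4.

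**Figure D2:**
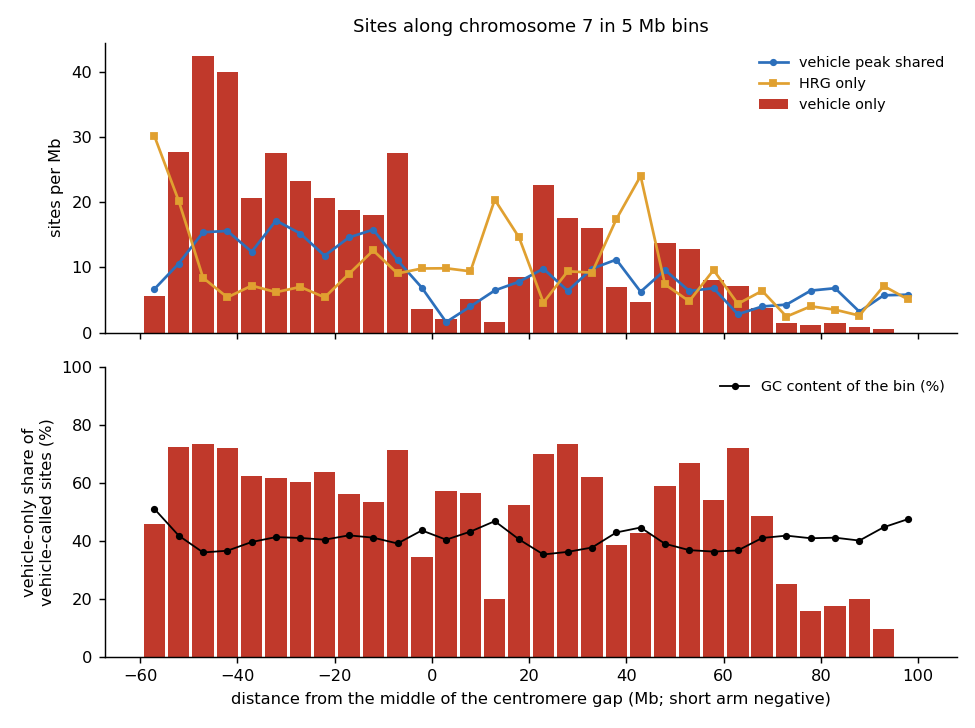
Upper panel, vehicle-only sites (bars), sites whose vehicle peak is shared with EGF or HRG (blue) and HRG-only sites (orange) per Mb in 5 Mb bins of chromosome 7. Lower panel, the vehicle-only share of vehicle-called sites in each bin (bars, %) with the GC content of the bin (black, %). The horizontal axis of both is the distance from the middle of the centromere gap in Mb, short arm negative; the tallest bar is 42.4 members per Mb, and the last 6 bins of the long arm stay at or under 1.44.

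Towards the end of the long arm the members thinned out. The bin of 125 to 130 Mb held 19, and the 6 bins beyond 130 Mb held 7, 6, 7, 4, 3 and 0. This boundary was chosen after the bins were seen. Before it there were 2023 members, at 16 per Mb, and after it 27, at 0.939 per Mb; members were 62.5% (60.8 to 64.1%) of the vehicle-called sites before it and 14.9% (10.5 to 20.8%) after it. Vehicle peaks dropped from 26.2 to 6.43 per Mb across the boundary, EGF peaks from 14.9 to 7.83, HRG peaks from 16.9 to 10.5 and pSKBr3 peaks from 10.2 to 5.77, while the BT-474 vehicle list had 13.1 and 14.1 per Mb and the LRSKBr3 list 14.1 and 12.6. The lists give neither DNA copy number nor input coverage along the chromosome, so the part of these in the densities by arm and across the boundary was not tested.

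The members were also denser where GC content was low. Over 5 Mb bins, the GC-poorest 11 (35.3 to 39.6% GC) held 1142 members at 20.8 per Mb, the middle 11 held 541 at 10.1 per Mb and the richest 10 held 367 at 7.82 per Mb. HRG-only sites of the same bins ran the other way between the extremes, at 7.22, 6.73 and 15.7 per Mb. Bins of like GC still differed by position: the bin of 5 to 10 Mb (41.8% GC) had 27.8 members per Mb, that of 75 to 80 Mb (40.5%) had 8.60, and that of 130 to 135 Mb (41.8%) had 1.43. Gene density moved with GC, since the poorest bins held 205 protein-coding starts and the richest 397, and their separate parts in the pattern were not tested.

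The median distance to the next member was 21.9 kb, and 33.8% of the gaps were under 10 kb; for vehicle-only sites of the other chromosomes these were 92.8 kb and 17.1%. Vehicle-only sites were also denser on chromosome 7, at 12.9 per Mb against at most 6.73 on any other. The part of this density in the shorter gaps was not tested. Since the chromosome was picked with its vehicle-only share known, the gaps are given as a description. Counting the members that follow each other with no other SKBr3 site between them, there were 947 runs, of which 243 had 3 or more sites and took in 1113 members, or 54.3%. The longest run had 17 sites over 262.8 kb (chr7:11095146-11357956) at PHF14, which encodes a PHD finger protein. Runs of 11 lay at NXPH1, a neurexophilin (chr7:8657512-8764672), and at AGMO, an ether lipid monooxygenase (chr7:15443942-15542866). The longest stretches without a member were 5.96 Mb across the centromere, of which 3.20 Mb is unsequenced, then 4.43 Mb from 144475258 to 148902759, which spans the neuronal adhesion gene CNTNAP2, 3.55 Mb from 99436335 and 3.43 Mb from 70754664. The last 2 of these held 169 and 120 HRG peaks.

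The vehicle peaks at the members were weak by the score that the peak caller gave, -10 log10 of the P value. Scores ran from 50, the lowest that the caller's threshold allows, to 1092 with a median of 75.6, and 25.4% of the members scored under 60. With peaks of P at most 1e-08 in all lists 1107 members were found, and with P at most 1e-10 there were 810. In the whole vehicle list the median member stood at percentile 24.0, compared with 61.4 for the other 1368 vehicle-called sites of chromosome 7 and 23.9 for vehicle-only sites of the other chromosomes. Only 24 members, 1.17%, stood at percentile 75 or above, 16 of them between 118 and 130 Mb on the long arm. These values belong to the list that selected the members and are given as a description. The peaks were 1615 bp wide in the median (418 to 16629 bp), against 1240 bp at vehicle-only sites elsewhere and 2188 bp at the other vehicle-called sites of chromosome 7.

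Just inside the rule were the members at chr7:20173141-20174698 near MACC1 (score 67.6), chr7:9311419-9313481 near NXPH1 (64.3) and chr7:12619869-12622418 near SCIN (208.1), which ended 4, 8 and 10 bp from an EGF or HRG peak. Just outside were vehicle-called sites at chr7:118615961-118623998 near ANKRD7 (score 189.1), chr7:8909503-8910809 near NXPH1 (76.7) and chr7:28856382-28857707 near CREB5 (64.2), whose peaks overlapped by 3, 19 and 173 bp. Most members were not such close cases, since the median distance to the nearest EGF or HRG peak was 13 kb and 130 members (6.34%) had one within 1 kb.

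One stretch of the long arm, from 118 to 130 Mb, stood apart in peak shape. It was bounded, in whole Mb, by the highest-scoring members after these were seen: all of the 10 highest except the one near GLI3 lie in it, which makes 9. The highest (chr7:118499231-118509952, score 1092) was 10722 bp wide, and others lay in introns of KCND2, a potassium channel gene (chr7:120352395-120361288, 764.2), ANKRD7 (chr7:118024532-118032100, 649.2), CPED1 (chr7:120882098-120889477, 537.4), NRF1, which encodes a transcription factor of nuclear genes for mitochondria (chr7:129375849-129385252, 460.7), and POT1, which encodes a telomere-binding protein (chr7:124518269-124525594, 425.7). The remaining 3 were intergenic, nearest KCND2 (chr7:119095151-119103682, 512.3), ANKRD7 (chr7:118329017-118342626, 464.5) and POT1 (chr7:125383353-125393250, 443.3). Of the 81 members in the stretch, 65.4% (54.6 to 74.9%) were 5 kb wide or more, compared with 1.37% (0.944 to 1.99%) of the other 1969, and the median widths were 6576 and 1585 bp. The 81 include the high-scoring members that bounded the stretch. Their median score percentile was 51.1, against 23.3 for the other 1969, and the part of score in the widths was not tested.

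Peaks of the stretch were also wide in the other SKBr3 lists. Over all peaks of the stretch the median width was 6093 bp in the vehicle list, 5157 in the EGF list, 4409 in the HRG list, 3972 in pSKBr3 cells and 5404 in LRSKBr3 cells. In BT-474 cells it was 2342 bp with vehicle, 2042 with EGF and 2214 with HRG, against 2406, 2152 and 2326 bp over the rest of the chromosome. None of the 81 members carried the ERRE word, at a share of 1.56% over all members, and 13 of them (16%) had a peak in any of the 5 other lists, against 21.5% of the members elsewhere on the chromosome. The member near GLI3, a transcription factor of Hedgehog signalling (chr7:42518009-42520914, score 853.1), was intergenic, 215763 bp from a start of that gene. This member was of the other kind: 2906 bp wide, with a peak in all 5 other lists and with its nearest EGF and HRG peaks 11.9 and 20.3 kb away.

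**Figure D3:**
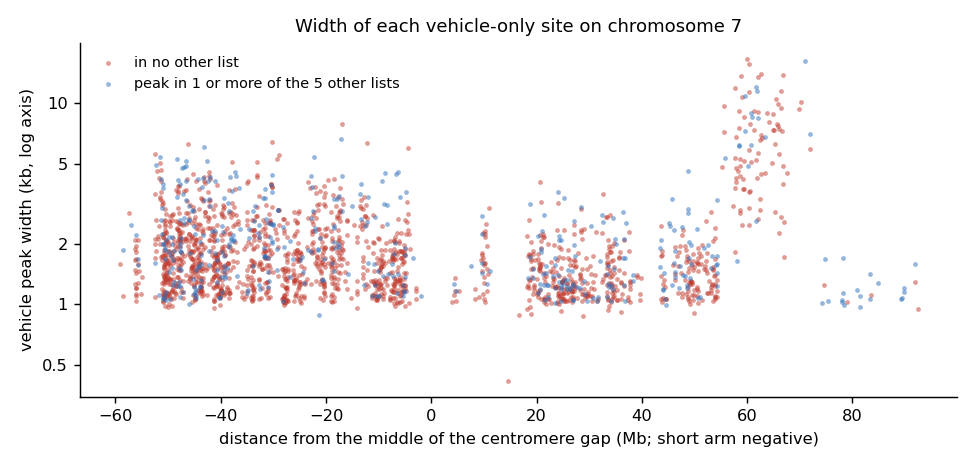
Width of the vehicle peak of each of the 2050 members (vertical log axis, kb) against its distance from the middle of the centromere gap (Mb, short arm negative); blue points have a peak in 1 or more of the 5 lists that the choice did not use. Most points lie between 1 and 5 kb, and a column of peaks up to 16.6 kb wide stands in the stretch from 118 to 130 Mb, where the median is 6576 bp.

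Few members had a peak in the cultures that the choice did not use. Of the 2050, 53 (2.59%, 1.98 to 3.37%) had a peak in pSKBr3 cells, compared with 45.5% of the other vehicle-called sites of chromosome 7 and 10.6% of vehicle-only sites of the other chromosomes; over all vehicle-called SKBr3 sites the share was 47.3%. The difference from vehicle-only sites elsewhere was -8.05 points (-9.03 to -6.98). In LRSKBr3 cells 107 members (5.22%, 4.34 to 6.27%) had a peak, against 63.3% of the other vehicle-called sites of the chromosome, 29.6% of vehicle-only sites elsewhere and 67.5% of all vehicle-called sites. With peaks of P at most 1e-10 in all lists the LRSKBr3 share was 10.6%, and with sharing defined by centres within 500 bp it was 11.8% and the pSKBr3 share 6.63%, against 37.2, 36.1 and 17.2% of vehicle-only sites elsewhere. The members thus shared fewer peaks with both of the other SKBr3 cultures than vehicle-only sites of other chromosomes did.

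In BT-474 cells the shares were somewhat higher but had the same order. With vehicle 195 members (9.51%) had a BT-474 peak, with EGF 154 (7.51%) and with HRG 266 (13%), while the other vehicle-called sites of chromosome 7 had 50.6, 43.6 and 56.9% and vehicle-only sites elsewhere 23.5, 17 and 24.6%. With centres within 500 bp as the rule for EGF and HRG peaks only, the BT-474 vehicle share was 14.5%, against 27.6% of vehicle-only sites elsewhere. Over all vehicle-called SKBr3 sites the shares with BT-474 vehicle, EGF and HRG peaks were 46.5, 36.9 and 49.1%. HRG-only sites of chromosome 7 were close to the members here, at 11.5, 7.77 and 11.7%, with differences whose intervals include 0, but they had a pSKBr3 peak more often (18.9%, difference -16.3 points, -18.5 to -14.3). A total of 1613 members, 78.7% (76.9 to 80.4%), had a peak in none of the 5 lists, against 51.3% of vehicle-only sites elsewhere, and 6 had one in all 5. Among these 6 were intergenic sites whose nearest genes were GLI3, CALD1, KLF14 and RAPGEF5 (215763, 35710, 165997 and 104945 bp from a start). Another lay in an intron of GRB10, an adaptor of receptor tyrosine kinases. These sites were picked out after their values were seen.

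The low sharing was seen within bands of equal score. Among members under percentile 25 of the vehicle list 1.70% had a pSKBr3 peak, from there to the median 2.97%, and from the median to percentile 75 4.98%. At the other vehicle-called sites of chromosome 7 these shares were 20.7, 30.6 and 38.8%, and at vehicle-only sites of the other chromosomes 6.87, 12 and 19.3%. The intervals of the members did not overlap those of the other classes in any of these 3 bands. The band from percentile 75 up holds 24 members, of which 1 had a pSKBr3 peak and 8 a BT-474 vehicle peak. That share, 33.3% (18 to 53.3%), equals the 33.3% of vehicle-only sites elsewhere.

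**Figure D4:**
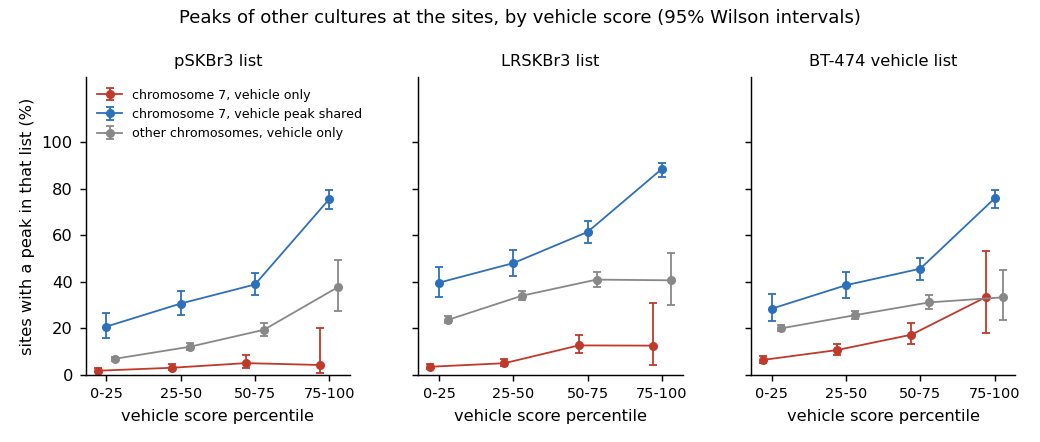
Share of sites with a peak in the pSKBr3, LRSKBr3 and BT-474 vehicle lists (vertical axis, %) by band of vehicle score (horizontal axis, percentile in the vehicle list); red, members; blue, other vehicle-called sites of chromosome 7; grey, vehicle-only sites of the other chromosomes; bars, 95% Wilson intervals. In the pSKBr3 panel the members lie at 1.70 to 4.98%, under both other classes in each band.

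The ERRE word was rare at the members. It stood within 100 bp of the centre in 32 of them (1.56%, 1.11 to 2.20%), compared with 5.70% of the other vehicle-called sites of chromosome 7, 5.83% of vehicle-only sites elsewhere and 7.51% of all vehicle-called sites. The difference from vehicle-only sites elsewhere was -4.27 points (-5.02 to -3.43). It was seen in the weaker peaks: under percentile 25 of the vehicle score 1.32% of members and 6.66% of vehicle-only sites elsewhere had the word, and from there to the median 1.69% and 5.79%. From the median to percentile 75 the shares were 1.92% (0.821 to 4.41%) and 3.12% (2.16 to 4.51%), with intervals that overlap, and from percentile 75 up they rested on 1 of 24 members and 1 of 69 sites elsewhere. With peaks of P at most 1e-10 the members' share was 2.35% and that of vehicle-only sites elsewhere 6.30%. Windows of the same length 2 kb to either side of the members held the word in 0.146%, so it was still more frequent at the centres than beside them. HRG-only sites of chromosome 7 had the same low share, 1.54%, with a difference of 0.0194 points (-0.866 to 0.835). The shorter word AAGGTCA, which lies within the ERRE word, was present at 7.85% of the members against 19.7% and 18.2%. In the 100 bp at the centre there were 7.80 ERRE words per 1000 members, against 36.5 per 1000 other vehicle-called sites of the chromosome and 38.9 per 1000 vehicle-only sites elsewhere. At both other classes this central bin was the highest. At the members the bin centred at +100 bp was higher, with 10.2 per 1000, but these bins held only 16 and 21 words.

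Base composition moved with this, and the difference was present at like GC in the 2 lower of 3 bands. Members averaged 38.0% GC in the 200 bp at the centre, vehicle-only sites elsewhere 41.7%, the other vehicle-called sites of the chromosome 42.8% and HRG-only sites 47.8%. Among sites under 40% GC, 1.38% (0.876 to 2.17%) of 1302 members had the ERRE word, against 5.43% (4.64 to 6.35%) of vehicle-only sites elsewhere and 4.98% (3.51 to 7.02%) of the other vehicle-called sites of chromosome 7. From 40 to 50% GC the shares were 1.94, 6.60 and 7%. At 50% GC or more there were 78 members, and the shares were 1.28% (0.227 to 6.91%), 4.38% (3.15 to 6.05%) and 5% (3 to 8.22%), with overlapping intervals. The share did not differ detectably between the arms, with 19 carriers on the short arm (1.39%, 0.889 to 2.15%) and 13 on the long arm (1.91%, 1.12 to 3.25%).

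The AP-1 words TGACTCA and TGAGTCA, which are the same word read on the 2 strands, stood within 100 bp of the centre in 68 members (3.32%, 2.62 to 4.18%) and in 2.59% of their flanking windows. Over all vehicle-called sites the share was 6.53%. Vehicle-only sites elsewhere had 3.22%, a difference of 0.0958 points (-0.736 to 1.05), and the other vehicle-called sites of chromosome 7 had 6.07% and HRG-only sites 4.96%. Only 2 members had both words, and 1952 had neither.

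**Figure D5:**
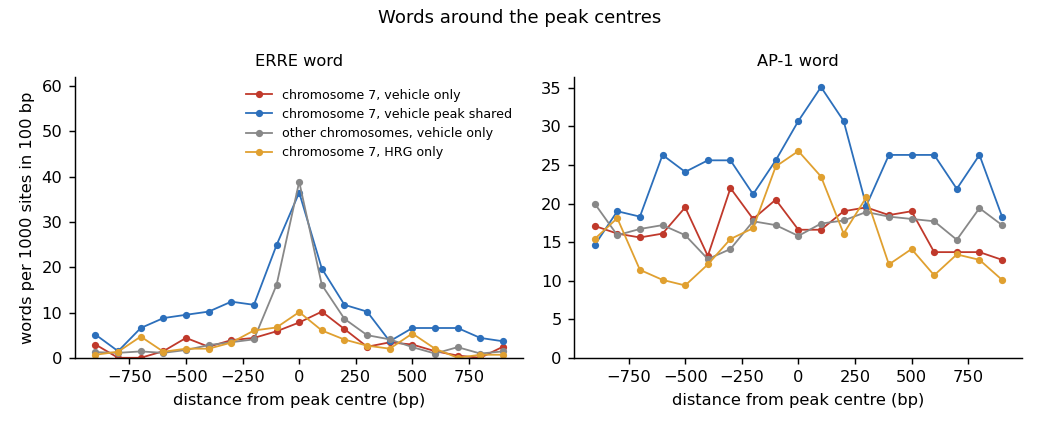
Words per 1000 sites in 100 bp bins (vertical axis) by distance from the peak centre in bp (horizontal axis), left the ERRE and right the AP-1 word. In the ERRE panel the members (red) stand at 7.80 and the HRG-only sites of chromosome 7 (orange) at 10.1 at the centre, where the 2 other classes reach 36.5 and 38.9; in the AP-1 panel the members have 16.6 per 1000 at the centre and range from 12.7 to 22 over the bins.

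Among the 6 strongest ERRE carriers were the sites near PCLO (chr7:82953522-82955501, score 206.9), in NAMPT (chr7:105902179-105904029, 151.6), in MACC1 (chr7:20203836-20205581, 148.6), in PLEKHA8 near MTURN (chr7:30161865-30163753, 144.3) and in DNAH11 (chr7:21722869-21726048, 143.6). The PCLO site was intergenic, 162266 bp from a start of that gene. NAMPT makes NAD from nicotinamide, and MACC1 regulates expression of the MET receptor. Of these 5, the NAMPT, MACC1 and PLEKHA8 sites had a peak in at least 1 BT-474 list, and none had one in pSKBr3 or LRSKBr3 cells.

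The members were far from gene starts. The median distance from the centre to the nearest start of a protein-coding gene (GENCODE) was 97368 bp, against 41280 bp at the other vehicle-called sites of chromosome 7 and 66992 bp at vehicle-only sites elsewhere. Within 1 kb of a start lay 41 members (2.00%, 1.48 to 2.70%), compared with 9.58% and 4.46% in those classes and 11.5% of all vehicle-called sites; within 20 kb lay 383 (18.7%), compared with 35.2%, 25.5% and 40.0%. By location 991 members (48.3%) had their centre in an intron, 997 (48.6%) between genes, 35 (1.71%) in a UTR and 27 (1.32%) in a coding exon. At the other vehicle-called sites of chromosome 7 these shares were 49.8, 44.7, 3.36 and 2.12%. At vehicle-only sites elsewhere they were 43.8, 52.3, 2.60 and 1.22%, so the members' intron and intergenic shares lay between those of the 2 classes.

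Among the 10 highest-scoring members within 1 kb of a start were those at THAP5 (score 201.7), SEC61G (186.2), SNX10 (153.7), FOXP2 (147.1), GTPBP10 (129.6), SMIM30 (119.7), SOSTDC1 (115.6), JAZF1 (105.8) and ITPRID1 (105.5). SEC61G encodes a subunit of the protein channel of the endoplasmic reticulum. The sites at THAP5 (chr7:108208761-108211604, 65.2% GC) and SEC61G (chr7:54824814-54828433, 72.1%) were GC-rich and, like the one at GTPBP10 (chr7:89975152-89977603), had peaks in both pSKBr3 and LRSKBr3 cells. Among the 53 members with a pSKBr3 peak, 8 lay within 1 kb of a start (15.1%), against 33 of the other 1997 (1.65%), and the mean GC contents were 44.2 and 37.8%.

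Among the intronic members many shared a host gene. There were 198 genes with a member in an intron, and the 69 genes with 5 or more held 793. HDAC9, a histone deacetylase gene 915.5 kb long, held 53 members, or 5.79 per 100 kb, beside 16 other vehicle-called sites. DGKB, a diacylglycerol kinase, held 45 (5.42 per 100 kb), THSD7A, a thrombospondin-domain gene, 29 (6.28), MAGI2, a scaffold of cell junctions, 28 (1.95), and AUTS2 and NXPH1 27 each (2.26 and 8.45). A pSKBr3 peak was found at 1 of the 53 HDAC9 members and none of the 45 DGKB members, and the ERRE word at none of either, counts too small to be told from the 2.59% and 1.56% of all members. All of these are long genes, and AUTS2 and MAGI2, on the long arm, had the lowest density of the 6.

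Of the 921 protein-coding genes of chromosome 7, 224 (24.3%, 21.7 to 27.2%) had a member within 20 kb of a start, and 414 (45%) had another vehicle-called site there. Genes with a member were longer, 71.0 kb in the median against 26.5 kb for those without, and had more annotated starts (4 against 3); the part of length in the counts below was not tested. Lists of chromosome 7 genes were read against these shares. Of 18 genes listed for mitochondrial respiration, the process ERRα is best known for, 3 had a member (16.7%, 5.84 to 39.2%) and 14 (77.8%) another vehicle-called site. These 3 were COA1, an assembly factor of cytochrome oxidase (score 91.0), SLC25A13, the mitochondrial aspartate and glutamate carrier (85.8), and DMTF1 (96.3), which had 5 members but encodes a transcription factor rather than a mitochondrial protein. The cytochrome c gene CYCS, NDUFA4, MDH2, OGDH and the pyruvate dehydrogenase kinase gene PDK4 had other vehicle-called sites and no member. Of the 4 mitochondrial ribosomal protein genes none had a member and 3 had another vehicle-called site.

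In the list of glucose, lipid, amino acid and steroid metabolism 13 of 33 genes had a member (39.4%, 24.7 to 56.3%). The fatty acid transporter gene CD36 had 7 (highest score 168.6), PPP1R3A, a glycogen-targeting subunit of protein phosphatase 1, had 6 (147.1, the site at the FOXP2 start), and AGMO and DGKB had 4 each (131.0 and 217.4). CROT had 2 (124.4), and AKR1B15, AKR1D1, CYP3A43, DGKI, GSTK1, NAMPT, PNPLA8 and PRKAG2 had 1 each, with scores from 60.3 at PNPLA8 to 157.8 at AKR1D1, a steroid reductase gene. The GSTK1 member (132.2), at a glutathione transferase gene, carried the ERRE word and had a peak in LRSKBr3 and BT-474 vehicle cells. Within this list too the genes with a member were the longer ones, 116.0 against 30.9 kb in the median.

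Of 45 genes for growth factor receptors, ligands and signalling, 19 had a member (42.2%, 29 to 56.7%). EGFR, the EGF receptor, had 3 members within 20 kb of a start beside 3 other vehicle-called sites; the highest (chr7:55196064-55198394, score 155.1) was intronic and in none of the pSKBr3, LRSKBr3 and BT-474 vehicle lists. GRB10 and the adhesion gene NRCAM had 5 each (highest scores 236.1 and 99.8), MAGI2 and the receptor phosphatase gene PTPRZ1 4 each (218.8 and 417.1), and SFRP4, SEMA3A and GNAI1 3 each (332.5, 114.9 and 125.8). The 2 members at the interleukin gene IL6 included one at chr7:22764108-22766714 (77.2), whose centre was 92 bp from a start. ADAM22, IGFBP3 and INHBA also had 2 members each, and DGKI, FZD1, GLI3, HGF, SEMA3C, SEMA3D and WNT2 had 1 each, with scores from 62.1 at DGKI to 103.7 at WNT2. MET, BRAF and RAC1 had neither a member nor another vehicle-called site within 20 kb of a start. The genes of the list with a member had a median length of 191.5 kb and those without 39.9 kb.

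Of 28 genes for the cell cycle and transcription, 14 had a member (50%, 32.6 to 67.4%). CREB5 had 12 (highest score 205.2), HDAC9 and FOXP2 8 each (312.0 and 290.5), and CDK14, JAZF1 and TWIST1 3 each (89.1, 149.5 and 114.8). AHR, the aryl hydrocarbon receptor gene, had 2 (106.5), as had ATXN7L1 (197.8), ETV1 (151.8) and ZNF277 (54.2), and CREB3L2, KMT2C, NFE2L3 and TRRAP had 1 each, with scores from 62.6 at CREB3L2 to 112.5 at NFE2L3. The genes of this list are long, 155.1 kb in the median. Of 20 homeobox genes 6 had a member (30%), among them MEOX2 with 5 (highest score 103.9), and HOXA3, HOXA4 and HOXA5 shared the site at chr7:27166093-27167688 (108.9). Of 24 genes listed for actin, adhesion and matrix, 4 had a member (16.7%). They were COL28A1 and the integrin gene ITGB8 with 3 each (229.3 and 100.3) and the collagen gene COL1A2 with 1 (73.9). KRBA1, whose place in the list was taken as given, also had 1 (67.4). The intervals of the metabolism, growth factor and cell cycle and transcription lists lie above the 24.3% of all genes. Those of the other 4 lists include it. The metabolism interval starts at 24.7%, within the 21.7 to 27.2% interval of all genes. Another vehicle-called site was found for 48.5, 46.7 and 60.7% of the genes of the metabolism, growth factor and cell cycle and transcription lists. For all genes the interval of that share was 41.8 to 48.2%. The lists were chosen with earlier results of these data known and were not matched for gene length. These shares describe the lists and test no enrichment.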

How the data were processed

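ERRα ChIP-seq was made from 19 samples (ChIP and input libraries) of human breast cancer cell lines. Per the labels and the study's methods, reads were aligned to hg19 (GRCh37) with BWA 0.5.9 and SAMtools 0.1.18, and peaks were called with MACS 1.4.1 at a P value cutoff of 1e-05 against input; the authors deposited 8 peak lists with positions and a score per peak. The deposited score is -10 log10 of the P value and depends on library depth, which is unknown here, so it was used as a rank within a list and, in the alternatives, as a stricter cutoff, never compared between lists. Groups came from the labels. ChIP replicates were pooled by the authors, so no test over samples could be made.

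Lists were merged in Python 3.11.15 with numpy 2.4.6 and intervals computed with scipy 1.17.1. The highest peak end on chromosome 7 (159112677) is within the GRCh37 length (159138663). Peak centres are midpoints. GC and words were read within 100 bp of the centre and in windows 2 kb away, without repeat masking. Gene starts are all transcript starts of 19833 protein-coding genes of GENCODE 44 lifted to GRCh37. In the gene lists a gene has a member when a peak centre is within 20 kb of one of its starts. Elsewhere a site named as near a gene has that gene's start as its nearest, at any distance. The scripts were checked on simulated peaks.

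The members and the gene lists were chosen with earlier results of these data known. Named were the 10 highest-scoring members, the 6 highest with an ERRE, up to 10 within 1 kb of a start, each listed gene with a member within 20 kb, the 3 densest 10 Mb windows with their 2 highest members, the 3 longest runs (with the tied one) and up to 5 genes with most intronic members (with the tied one). Sequences were shown for the 4 highest ERRE carriers and the highest-scoring member. Some items that this rule names are not reported here.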

Additional observations from a re-analysis of the deposited data

How the results depend on the processing

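No paired analysis was possible because the ChIP replicates were pooled into 1 list per condition, and leaving out a replicate was not run for the same reason. Of 71 values under the alternatives, 43 stayed within the interval of the reported value (for the count, within 1.5 times) and 28 did not. On chromosome 7 the vehicle-only share exceeded that of the other chromosomes under all 5 alternatives to the peak rule. Vehicle-only status is what the rule used, so this share describes the choice and tests nothing. The members' shares with pSKBr3, LRSKBr3 and BT-474 vehicle peaks, their ERRE share and their GC content were below those of vehicle-only sites elsewhere under the same 5.

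With peaks of P at most 1e-08 there were 1107 members, 53.4% of the vehicle-called sites of the chromosome and 20.2% of all vehicle-only sites, and 8.22% had an LRSKBr3 peak, 11.8% a BT-474 vehicle peak and 21.2% a start within 20 kb. With P at most 1e-10 these values were 810, 50.3%, 18%, 10.6%, 13.1% and 23.1%, and 3.58% had a pSKBr3 peak and 2.35% the ERRE word. When sharing needed an overlap of 50% of both peaks, members were 63.9% of the vehicle-called sites, and 3.67, 7.43 and 11.5% had a pSKBr3, LRSKBr3 and BT-474 vehicle peak. When it needed centres within 500 bp these were 69.5% and 6.63, 11.8 and 14.5%. The densest window of 5 Mb held 11.9% and that of 20 Mb 35.2% of the members. The word AAGGTCA gave 7.85%, the ERRE over the whole peak 6.49% and AP-1 over the whole peak 28.8%, and 12.2% lay within 10 kb of a start. Over the whole peak the AP-1 share was above the 23.5% of vehicle-only sites elsewhere, whose peaks are narrower. Cutting the 3 lists to 32183 peaks each moved no value outside its interval. Weak peaks decide the number of members, and without read counts or input coverage a weak site cannot be told from one just under the threshold.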

Other observations

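The other classes of SKBr3 sites were unevenly placed on chromosome 7, which makes up 5.14% of the length. It held 10.7% (10.2 to 11.3%) of all HRG-only sites, 9.68% (8.93 to 10.5%) of EGF-only sites and 12.7% (11.8 to 13.6%) of sites with vehicle and EGF peaks and no HRG peak, against 24.3% of vehicle-only sites. It held 3.77% (2.97 to 4.77%) of sites with vehicle and HRG peaks and no EGF peak, 4.44% (3.91 to 5.05%) of sites with EGF and HRG peaks and no vehicle peak, and 3.98% (3.69 to 4.29%) of the sites common to the 3 lists. These shares were computed after the data were seen. With vehicle-only sites left out of the total, HRG-only sites were 41.2% of the sites of chromosome 7 and 28.2% of those elsewhere, and common sites 17.8% and 35.4%.

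In BT-474 cells, merged in the same way, vehicle-only sites were 17.6% (16 to 19.3%) of the vehicle-called sites of chromosome 7 and 15.9% (15.4 to 16.3%) of those on the other chromosomes. Of the 2050 SKBr3 members, 42 (2.05%) lay at a BT-474 vehicle-only site.

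EGF-only sites of SKBr3 cells had their highest count of any 5 Mb bin of chromosome 7, 62, at 115 to 120 Mb, within which part of the stretch of wide peaks falls, and that bin held 40 members and 4 sites common to the 3 lists.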
